A study of Arabidopsis thaliana with 4 samples.

Results

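The response of dark-grown hypocotyls to the synthetic auxin naphthalene acetic acid (NAA) was followed in the arf7 mutant, which carries a T-DNA insertion in the gene of the auxin response factor ARF7. The comparison takes 2 of the study's 4 libraries, arf7 NAA and arf7 mock, chosen by their labels. The other 2, Col-0 NAA and Col-0 mock, are the wild type under the same treatments and serve here as the reference. All plants were Arabidopsis thaliana seedlings that grew in darkness for 4 days on MS medium, with 500 nM NAA or with none, before hypocotyls were taken. The labels do not name the insertion allele. Each group is 1 library of bulk RNA, so no difference has a replicate check and none carries a p-value. Fewer cells of a type and less RNA per cell cannot be told apart in such libraries.

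Auxin acts on transcription by bringing the Aux/IAA repressors to the TIR1/AFB receptors, which leads to the repressors' breakdown and frees the auxin response factors they hold. ARF7 is an activating member of that factor family and is known from mutants whose hypocotyls bend poorly toward light or after a change of gravity. Targets of auxin in growing stems include the SAUR growth genes, the GH3 enzymes that couple auxin to amino acids, the Aux/IAA genes themselves and wall-loosening expansins. What is left of the NAA response in plants without normal ARF7 is the subject of the values that follow.

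The arf7 libraries held 7.0e+06 assigned reads in mock and 7.2e+06 with NAA, and the Col-0 libraries 7.4e+06 and 7.2e+06. ARF7 itself (AT5G20730, chromosome 5, 7016445 to 7022042, reverse strand, TAIR10) had 3 reads in arf7 mock, 1 in arf7 NAA and 8 in each Col-0 library, over only 2.03% of its model. The difference runs in the direction of the labels, but at this depth ARF7 was barely measured. The Col-0 NAA library stood apart from the other 3, and its Spearman correlation with its own mock over loci was 0.852, where that of the arf7 pair was 0.968. It also held 50538 reads of mitochondrial genes against 5985 to 7112 in the others. Every statement below about Col-0 with NAA rests on that library. Marker genes of other parts of the seedling were read in the arf7 pair. The 6 green cotyledon markers summed to 5445 CPM (reads scaled to the library total) in mock and 5878 with NAA. The shoot apex marker KNAT1 had 1586 and 1940 reads and STM 31 and 47, while CLV3 was at 0 in both arf7 libraries. Of the 3 seed markers with reads, the oleosin gene OLEO1 had 1 and 2, OLEO2 had 0 and 8 (at least 2.59-fold higher) and the albumin gene SESA1 had 25 and 6 (4.29-fold lower, 1.72 to 12.8). The share of those tissues in the differences was not tested.

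The 8 stretches shown first lie upstream of genes named below, and each holds the motif that is marked in it. They are the 250 bases before the start of each TAIR10 gene model and read from the RefSeq copy of that genome. The first 4 belong to root hair genes that were at or near 0 in arf7 mock and were read with NAA. Capitals mark matches to the root hair element, a short promoter motif first described in root hair genes of this species.
LRX1: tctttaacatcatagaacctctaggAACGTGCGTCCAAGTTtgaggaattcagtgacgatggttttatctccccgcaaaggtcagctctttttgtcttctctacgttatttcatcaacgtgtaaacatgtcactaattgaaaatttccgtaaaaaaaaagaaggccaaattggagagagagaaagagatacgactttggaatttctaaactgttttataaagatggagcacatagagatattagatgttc
PRP1: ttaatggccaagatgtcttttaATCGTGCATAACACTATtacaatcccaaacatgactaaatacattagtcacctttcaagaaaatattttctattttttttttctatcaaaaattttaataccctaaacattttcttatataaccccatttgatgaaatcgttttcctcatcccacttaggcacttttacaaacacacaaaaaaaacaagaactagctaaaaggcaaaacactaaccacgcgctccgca
PRP3: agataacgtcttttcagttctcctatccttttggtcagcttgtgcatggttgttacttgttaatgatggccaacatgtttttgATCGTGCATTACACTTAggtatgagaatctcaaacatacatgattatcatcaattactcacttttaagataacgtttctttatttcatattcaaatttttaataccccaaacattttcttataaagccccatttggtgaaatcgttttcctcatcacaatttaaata
EXPA18: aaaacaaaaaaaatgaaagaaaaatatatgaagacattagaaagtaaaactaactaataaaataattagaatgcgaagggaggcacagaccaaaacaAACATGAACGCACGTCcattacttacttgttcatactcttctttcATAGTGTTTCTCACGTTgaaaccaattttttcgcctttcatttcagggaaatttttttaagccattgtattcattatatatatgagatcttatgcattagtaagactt
These lie at chr1:4069874-4070123 (LRX1), chr1:20504750-20504999 (PRP1), chr3:23182472-23182721 (PRP3) and chr1:23331426-23331675 (EXPA18), all on the forward strand. The matches begin 225 bases before the gene start in LRX1, 228 in PRP1, 167 in PRP3, and 153 and 108 in EXPA18.

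The next 3 belong to jasmonate genes that were lower with NAA in arf7. Capitals mark the G-box, CACGTG, a motif that the jasmonate-activated MYC factors are known to bind.
AOS: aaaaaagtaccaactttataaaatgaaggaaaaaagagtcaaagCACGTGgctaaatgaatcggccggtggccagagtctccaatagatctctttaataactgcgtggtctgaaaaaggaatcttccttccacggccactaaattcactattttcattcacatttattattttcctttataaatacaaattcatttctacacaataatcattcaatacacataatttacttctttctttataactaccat
AOC2: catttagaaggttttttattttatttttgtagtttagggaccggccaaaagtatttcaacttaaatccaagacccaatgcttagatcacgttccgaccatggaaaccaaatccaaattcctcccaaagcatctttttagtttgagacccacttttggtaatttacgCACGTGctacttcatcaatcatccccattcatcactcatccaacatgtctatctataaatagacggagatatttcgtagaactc
JAZ8: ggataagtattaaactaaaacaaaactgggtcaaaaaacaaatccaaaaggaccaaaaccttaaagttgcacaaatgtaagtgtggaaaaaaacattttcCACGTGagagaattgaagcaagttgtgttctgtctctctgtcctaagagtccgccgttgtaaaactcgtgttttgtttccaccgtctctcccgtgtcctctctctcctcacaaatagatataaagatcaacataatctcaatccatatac
They are chr5:17099396-17099645 on the reverse strand (AOS), chr3:9406623-9406872 forward (AOC2) and chr1:10596242-10596491 forward (JAZ8), with the G-box starting 206, 84 and 150 bases before the gene. The last is GH3.2, an auxin-induced gene higher with NAA in both genotypes, with the auxin response element TGTCTC in capitals.
GH3.2: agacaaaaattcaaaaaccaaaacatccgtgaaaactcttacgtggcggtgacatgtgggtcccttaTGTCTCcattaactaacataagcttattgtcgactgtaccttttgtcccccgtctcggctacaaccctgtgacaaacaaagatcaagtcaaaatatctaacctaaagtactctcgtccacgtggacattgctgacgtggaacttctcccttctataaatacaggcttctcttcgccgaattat
It is chr4:17579407-17579656 on the forward strand, and the motif starts 183 bases before the gene.

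The arf7 pair differed at far fewer loci than the Col-0 pair, and by smaller ratios. Of 17317 loci compared, 660 (3.81%) were higher and 763 (4.41%) lower with NAA in arf7, 8.22% in either direction. A locus was counted where its CPM values differed by at least 2-fold with a 95% exact counting interval of the ratio that excludes 1. Counting intervals follow folds in parentheses below, and they cover counting error between 2 libraries only. By the same rule 2463 loci (14.2%) were higher and 2492 (14.4%) lower in Col-0, 28.6% in all. The standard deviation of the log2 ratio over loci was 0.72 in arf7 and 1.51 in Col-0, and the median was -0.01 and -0.08.

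The higher loci in arf7 had fewer reads at the median than the lower loci, and more of them reached 4-fold, though most loci in either direction did not. Among the counted loci, 204 higher and 129 lower reached 4-fold, and 36 higher and 8 lower reached 16-fold. The median higher locus went from 14 reads in mock to 44 with NAA, and the median lower locus from 76 to 27. Of the higher loci 30 had no read in mock, while 2 of the lower loci had none with NAA. Among loci between 1 and 5 CPM 324 were higher and 300 lower of 4250, and among the 5491 between 20 and 100 the counts were 74 and 156. Of 611 loci below 1 CPM in the arf7 pair, 50 were higher and 6 lower. Those passed the filter on all 4 libraries through Col-0, so the contrast at low reads comes in part from the filter. With a mean of at least 1 CPM over the arf7 libraries instead, 617 loci were higher and 778 lower.

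Ranks per length were taken among loci with 1 listed model only. The first and second of these ranks, PYK10 and AT4G23670, were the same in both arf7 libraries, and lower ranks changed, as for TIP1;2 from 17 to 5. PYK10 (AT3G09260), the beta-glucosidase of the ER bodies, had 18382 RPKM in arf7 mock and 13854 with NAA. Its reads were 232283 and 180191, 1.33-fold lower (1.32 to 1.34) and short of the 2-fold rule, while in Col-0 they went from 293803 to 52476, 5.42-fold lower. The transporter PEN3 (AT1G59870), which exports defence compounds, behaved alike in kind, with 47669 and 32446 reads in arf7 and 50263 and 12621 in Col-0. Abundant loci that gained the most reads with NAA in arf7 were the beta-xylosidase BXL1, the tonoplast aquaporin TIP1;2, the papain-like protease AT4G11320 and the lipid-binding protein PATL1. AT4G11320 had 33294 reads in mock and 54958 with NAA, 1.6-fold (1.58 to 1.63), against 51889 and 12643 in Col-0. PATL1 had 13499 and 30321, 2.18-fold higher (2.14 to 2.23), against 19175 and 21986.

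Extensins, the hydroxyproline-rich rod proteins that are cross-linked into cell walls, made up the group with the largest median ratio among families taken by name. Of 21 compared members 13 were higher and 0 lower in arf7, with a median log2 ratio of 3.64 against -0.01 over all loci. That was 61.9% past the rule, against 8.22% of all loci. In Col-0 18 of the 21 were higher, with a median of 5.61, and 9 had an arf7 response below that of Col-0 by at least 1 log2 with a counting interval that excludes 0, a shift below Col-0 found at 12.5% of all loci. AT3G54580 (chromosome 3, 20200688 to 20203782, reverse strand) had 38 reads in arf7 mock and 1324 with NAA, 33.9-fold higher (24.5 to 48.1), against 62 and 4527 in Col-0. Its neighbour HRGP1 (chromosome 3, 20206160 to 20208472) had 26 and 543, 20.3-fold (13.7 to 31.3), against 22 and 1616. EXT10 had 8 and 262 reads, 31.8-fold (15.9 to 74.5), against 8 and 998. Each of these was near the low end of its range in both mock libraries, and arf7 NAA lay between the mocks and Col-0 NAA.

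The extensins did not share 1 ratio between genotypes. AT1G23720 had 110 and 1396 reads in arf7, 12.3-fold (10.1 to 15.1), and 81 and 970 in Col-0, 12.4-fold, so arf7 was as high as the wild type there. LRX2, an extensin with leucine-rich repeats, had 22 and 50, 2.21-fold (1.31 to 3.83), against 25 and 1205 in Col-0, a difference of -4.48 log2 (-5.40 to -3.57). EXT4 had 663 and 546 reads in arf7 and did not meet the rule, against 395 and 4771 in Col-0. The abundant members did not meet it either. AT2G43150 had 33331 and 25221 reads, EXT3 14372 and 20561, and ELP 13825 and 12741, and with them the family summed to 8947 CPM in mock and 8980 with NAA. The family's reads as a whole were thus level while 13 members were higher. Extensin repeats are alike between members, so reads of single members are uncertain to the extent that the authors' counting could split them.

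Root hair genes were absent or nearly absent from arf7 mock and were read with NAA. All 11 markers of root hairs together had 11 reads in arf7 mock and 375 with NAA, and 7 of the 11 had none in mock. With no expression filter 10 of the 11 were higher, where 3.29% of 22531 loci with arf7 reads were (3.72% were lower and 7.01% either), and the eleventh, ADF8, had 0 and 5 reads. In Col-0 the same genes went from 2.97 to 138 CPM, and in arf7 from 1.57 to 52.1. PRP3, a proline-rich wall protein, had 5 and 157 reads, 30.5-fold higher (12.8 to 95.3), against 9 and 431 in Col-0. LRX1, the extensin chimera of root hair walls, had 2 and 88 reads, a ratio of 42.7 (11.5 to 359), against 3 and 194. XTH14, a xyloglucan-modifying enzyme, had 3 and 41 reads, a ratio of 13.3 (4.24 to 67.0), against 2 and 200. NAA libraries of both genotypes were above both mock libraries for each of the 3 genes.

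The regulators that start root hair growth were read at a few counts only. RHD6, a bHLH factor of root hair initiation, had 0 reads in arf7 mock against 8 under NAA, at least 2.59-fold more with 0 taken as at most 3 reads per library, against 2 and 30 in Col-0. RSL4, the bHLH factor that sets root hair length, had 0 and 9, at least 2.91-fold, against 2 and 6. PRP1 had 0 and 21, at least 6.80-fold, against 0 and 54. EXPA7 had 0 and 12 in arf7, at least 3.89-fold, and also 0 and 12 in Col-0. At this depth a difference between genotypes in the size of these responses was not detectable, and 1 of the 7 markers that were compared had an arf7 response below Col-0 by the rule. In the 300-base window around the gene start, 4 of these 7 held the root hair element (LRX1, PRP1, PRP3 and EXPA18), against 0.709% of 17200 promoters, 1.37% of those of the higher loci and 0.921% of those of the lower loci. The element was described from promoters of such genes, so the match among the markers is not independent.

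**Figure D1:**
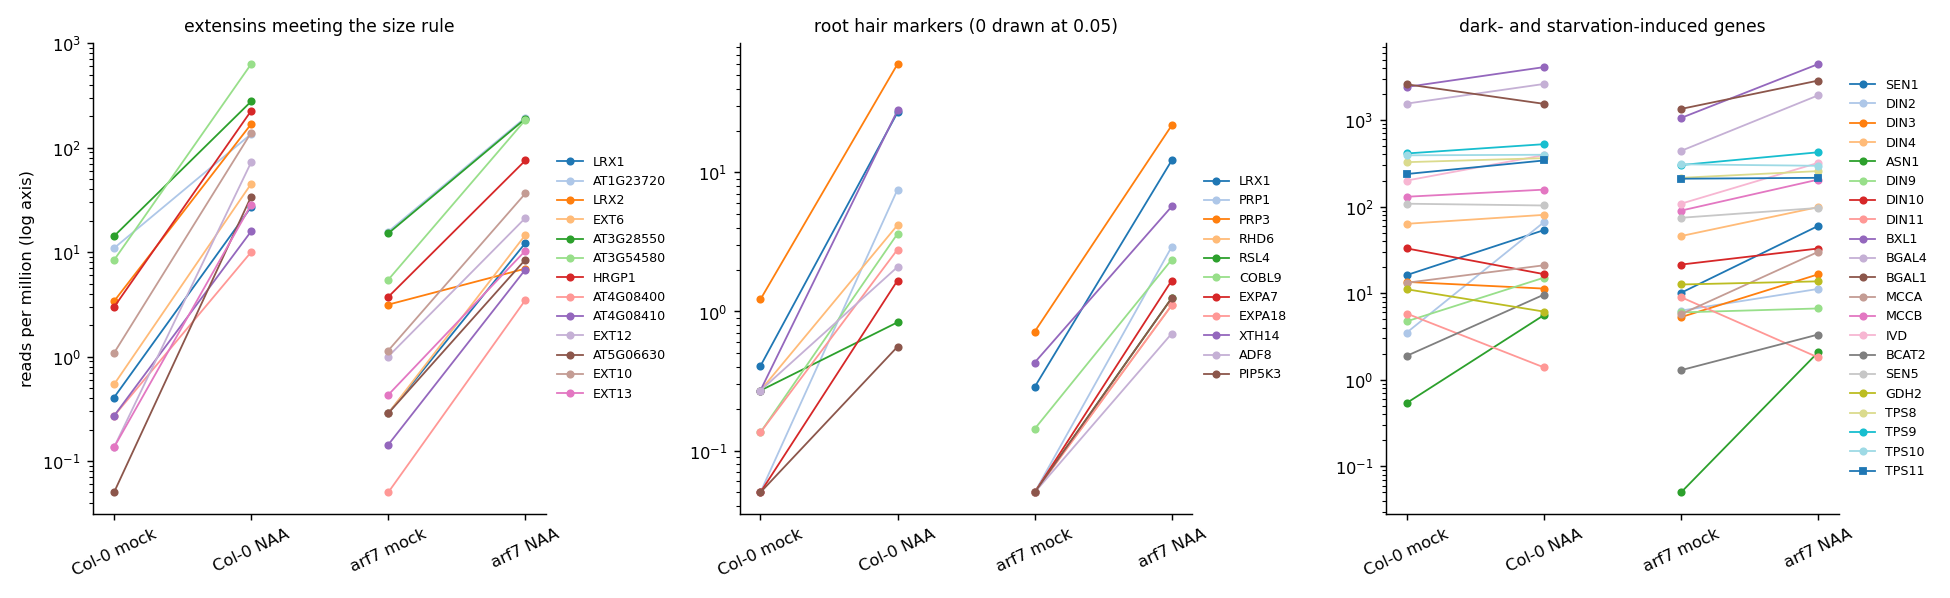
CPM (y, log axis) in each of the 4 libraries, with a line joining mock to NAA within a genotype, for the 13 extensins that met the size rule in arf7, the 11 root hair markers and 21 dark- and starvation-induced genes; values of 0 are drawn at 0.05. Extensins and root hair markers are higher with NAA in both genotypes and mostly higher in Col-0 NAA than in arf7 NAA, whereas BXL1 and BGAL4 are lower in arf7 mock than in the other 3 libraries.

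Other wall genes went both ways. Of 20 expansins, which loosen walls, 7 were higher and 1 lower (median 0.58; 13 and 4 in Col-0, median 1.87). The root hair marker EXPA18 is among the 7, and 5 of the 7 reached 30 reads with NAA. EXPA8 had 18 and 117 reads in arf7, 6.32-fold (3.83 to 11), and 335 and 2134 in Col-0, 6.58-fold, so the ratio was alike while the level differed widely between genotypes. EXPA9, by contrast, had 162 and 222 reads in arf7 and did not meet the rule, against 73 and 1867. Of 24 xyloglucan endotransglucosylases 3 were higher and 3 lower. XTH24 had 7982 and 16946 reads, 2.06-fold higher (2.01 to 2.12), against 13943 and 8667 in Col-0. XTH31 had 2722 and 863, 3.25-fold lower (3.01 to 3.51), against 2183 and 1369. Among 43 arabinogalactan and fasciclin-like proteins 4 were higher and 4 lower, led at the lower end by FLA15 with 1330 and 350 reads, 3.91-fold (3.47 to 4.41). CWLP, a wall-plasma membrane linker protein, had 12371 and 5601 reads, 2.27-fold lower (2.20 to 2.35), where Col-0 had 8812 and 11032.

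The largest ratios at a mean of at least 10 CPM in the arf7 libraries included 4 further genes. AIR1 (AT4G12550, chromosome 4, 7439115 to 7439805), a gene found in auxin-treated root cultures, had 4 reads in arf7 mock and 271 with NAA, 65.8-fold (25.4 to 243), against 7 and 893. AT4G15160, of the lipid-transfer protein superfamily, had 25 and 994, 38.6-fold (26.0 to 60.0), against 91 and 5796. CDEF1, a cutinase-like lipase, had 43 and 708, 16-fold (11.8 to 22.3), against 59 and 6554. All 3 were higher with NAA in both genotypes, and only the CDEF1 response was below that of Col-0 by the rule, with a difference of -2.85 log2 (-3.42 to -2.27). AT5G44417 was higher in arf7 by more than in Col-0, with 15 and 217 reads, 14.1-fold (8.33 to 25.5), against 34 and 124, 3.77-fold.

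Class III peroxidases, secreted enzymes that cross-link or loosen walls, split into a higher and a lower set. Of 46 compared, 11 were higher and 7 lower in arf7 (median 0.05), while in Col-0 23 were higher and 4 lower (median 1.04). The arf7 share past the rule was 39.1%, against 8.22% of all loci. AT2G18980 had 17 and 270 reads, 15.4-fold higher (9.46 to 26.9), against 34 and 1175 in Col-0. AT5G17820 had 26 and 218, 8.15-fold (5.41 to 12.8), against 22 and 1987. At the other end AT4G36430 had 273 and 72, 3.90-fold lower (3.0 to 5.13), against 257 and 586, and PRX72 had 842 and 415, 2.09-fold lower (1.85 to 2.35), against 956 and 2502. The last pair thus went opposite ways in the 2 genotypes.

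No Aux/IAA repressor gene met the rule (0 of 21, median 0.10), against 5 higher and 2 lower in Col-0. IAA19, a hypocotyl growth gene, had 193 and 163 reads in arf7 and 348 and 755 in Col-0. IAA20 had 1 and 2 in arf7 and 0 and 165 in Col-0. IAA17 had 576 and 890, 1.5-fold (1.35 to 1.67), against 814 and 2559, 3.25-fold. The log2 ratios of the Aux/IAA genes ran from -1.44 to 1.01. The 12 compared ARF genes were all within 2-fold, and ARF19, the closest relative of ARF7, had 643 and 709 reads in arf7 and 660 and 702 in Col-0. Of the receptors, TIR1 had 994 and 1678, 1.64-fold (1.52 to 1.78), against 1077 and 2042.

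Some auxin-inducible genes still differed. Of 11 GH3 enzymes 3 were higher and 0 lower (median 0.66), against 8 in Col-0 (median 1.61). GH3.2 (chromosome 4, 17579657 to 17582022) had 34 and 152 reads, 4.34-fold (2.98 to 6.50), against 36 and 1709, 49.0-fold. GH3.5 had 241 and 687, 2.77-fold (2.39 to 3.22), and 2062 and 5400 in Col-0, 2.70-fold. GH3.2 had the same level in both mocks and a smaller ratio in arf7, and GH3.5 had a lower level in arf7 throughout and the same ratio. GH3.3 had 1239 and 2490 reads, 1.95-fold (1.82 to 2.09), just short of the rule, against 906 and 2684. Of 48 SAUR genes 3 were higher and 3 lower (median 0.08), against 30 and 3 in Col-0 (median 2.03). SAUR72 had 49 and 194 reads in arf7, 3.85-fold (2.80 to 5.38), and 90 and 101 in Col-0. PIN2, an auxin efflux carrier best known from roots, had 22 and 116 reads, 5.12-fold (3.23 to 8.49), against 14 and 272, and was the 1 member of 12 PIN and PILS carriers to meet the rule. Past the rule in arf7 were 27.3% of GH3, 12.5% of SAUR and 8.33% of these carrier genes, against 8.22% of all loci. The carrier share was thus that of the background, and the SAUR median was close to 0.

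The auxin response elements were counted in promoters. TGTCTC, read on both strands, was in 16.3% of all 300-base windows (250 bases before to 50 after the start), in 16.9% of those of the 657 higher loci with a window and in 15.7% of those of the 760 lower loci. That share was thus close to the background in the higher loci. TGTCGG was in 5.88%, 2.89% and 6.71%, so it was rarer in the windows of the higher loci than in all windows, and no test was made. Of the 11 GH3 windows 5 held TGTCTC, GH3.2 among them, as did 5 of the 11 JAZ windows, and of the 21 extensin windows 0 did. The model starts equal RefSeq's gene starts at 16.6% of loci and lie within 100 bases at 60.6%, so a window can miss part of a promoter.

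**Figure D2:**
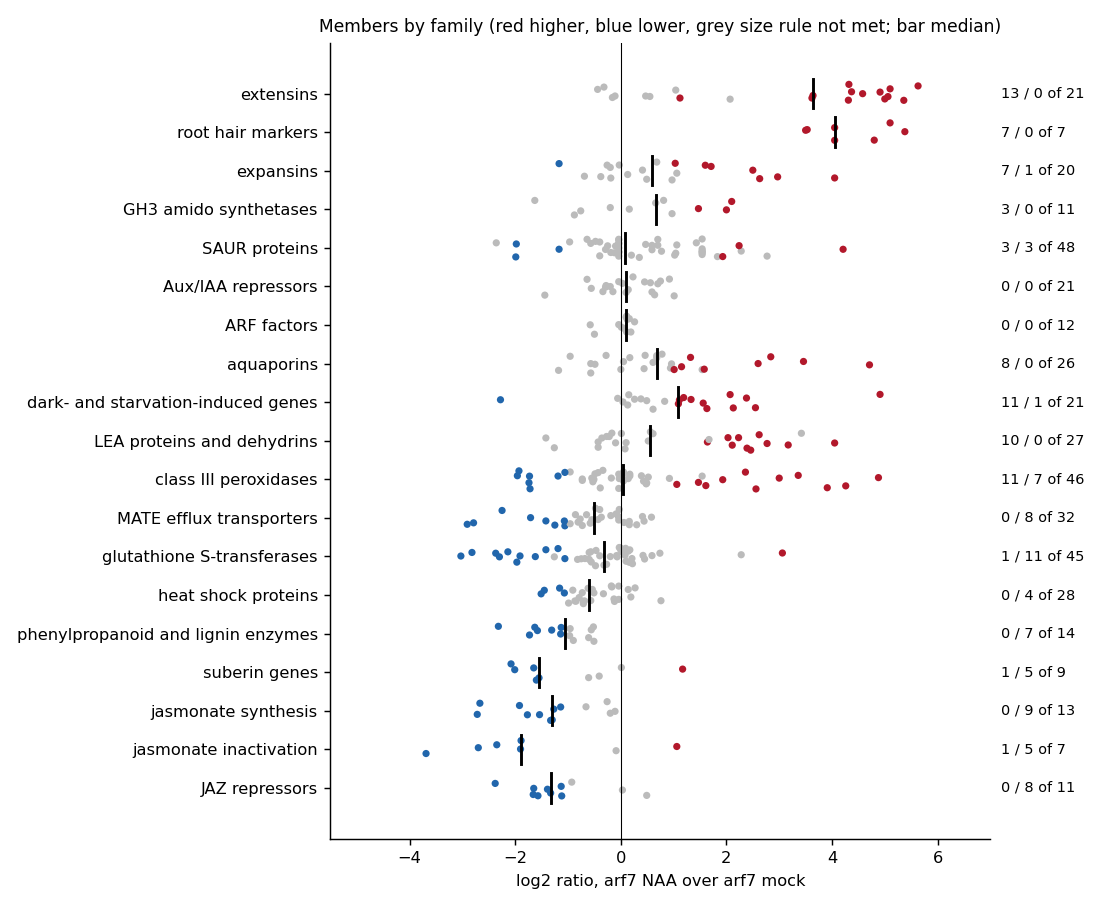
Log2 ratio of arf7 NAA over arf7 mock (x) of each compared member of 19 families or lists (rows), with red for higher, blue for lower, grey where the size rule was not met, a bar at the median and the numbers higher, lower and compared at the right. Extensins and root hair markers lie furthest to the right, and jasmonate, suberin and phenylpropanoid genes to the left of 0.

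Aquaporins had members higher and none lower. Of 26 aquaporins, the water channels of the plasma membrane and the vacuole, 8 were higher and 0 lower. That was 30.8% past the rule, against 8.22% of all loci. The family summed to 3402 CPM in arf7 mock and 7698 with NAA. In Col-0 18 were higher, the sums were 4848 and 29942, and 17 members had an arf7 response below Col-0. TIP1;2 (chromosome 3, 9722443 to 9723815, reverse strand), a tonoplast channel, held most of the family's gain, with 10978 and 33728 reads, 2.98-fold (2.92 to 3.05), against 18352 and 117098. NIP1;1 had 11 and 130, 11.5-fold (6.21 to 23.6), against 5 and 271. PIP2;4, a plasma membrane channel, had 64 and 91 in arf7 and 103 and 7499 in Col-0. TIP2;2 had 241 and 398 in arf7 and 367 and 10730 in Col-0. Channels with the largest Col-0 ratios were thus spread in arf7 from within 2-fold to 11.5-fold.

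Of 15 SWEET and other sugar transporters 4 were higher and 0 lower, with a median of -0.03. SWEET12, a sucrose exporter of phloem loading, had 337 and 1487 reads in arf7, 4.29-fold (3.81 to 4.84), against 296 and 2662, and its partner SWEET11 had 944 and 2171, 2.23-fold (2.07 to 2.41), against 477 and 5837. STP1, a hexose importer, had 2318 and 4982, 2.09-fold (1.99 to 2.19), against 3817 and 4339. MATE efflux transporters ran the other way, with 0 of 32 higher and 8 lower (median -0.52; 8 and 9 in Col-0). EDS5, a MATE transporter needed for salicylic acid accumulation, had 1181 and 512 reads, 2.37-fold lower (2.14 to 2.64), against 809 and 144.

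Genes known to be induced by darkness or sugar starvation were higher in arf7 with NAA, more of them than in Col-0. Of 21 genes 11 were higher and 1 lower (median 1.09), against 5 and 1 in Col-0 (median 0.36). Over all loci 3.81% were higher and 4.41% lower in arf7, and 14.2% and 14.4% in Col-0. This list, like the other locus lists here, was made with earlier results of these data known. Its counts are not independent of them. Together they summed to 4270 CPM in arf7 mock and 11297 with NAA, against 8514 and 10797 in Col-0. BXL1 and the beta-galactosidases BGAL1 and BGAL4 held most of both arf7 sums. In CPM, BXL1 went from 1056 to 4425 and BGAL1 from 1343 to 2853 in arf7. BXL1 (AT5G49360, chromosome 5, 20011879 to 20016742, reverse strand), a beta-xylosidase that trims wall xylan and arabinan, had 7392 and 31871 reads, 4.19-fold (4.08 to 4.30), against 17855 and 29303, 1.69-fold. BGAL4, a beta-galactosidase, had 440 and 1928 CPM, 4.39-fold (4.22 to 4.56), against 1548 and 2608. The arf7 mock library was the low one for both genes. With NAA in arf7, BXL1 stood near Col-0 NAA, and BGAL4 lay between Col-0 mock and Col-0 NAA.

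The enzymes of leucine breakdown within that list were also higher. IVD, the isovaleryl-CoA dehydrogenase, had 758 and 2304 reads, 2.95-fold (2.72 to 3.21), against 1480 and 2822, 1.97-fold. MCCB, a subunit of methylcrotonyl-CoA carboxylase, had 629 and 1474, 2.28-fold (2.07 to 2.5), against 964 and 1128. MCCA, the other subunit, had 40 and 216 reads, but over 5.91% of its model only. DIN4, of branched-chain keto acid breakdown, had 320 and 710, 2.16-fold (1.89 to 2.47), against 469 and 576. The class II trehalose phosphate synthases TPS8 to TPS11 of the list did not meet the rule, and DIN11 was lower, with 63 and 13 reads, 4.99-fold (2.72 to 9.88). SEN1, ASN1 and DIN3, which met the rule as higher, had reads over 9.79% to 11.9% of their models.

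Jasmonate synthesis genes were lower as a group. Of 13 genes 0 were higher and 9 lower (median -1.30), and none of the 13 had a ratio above 1. The share past the rule was 69.2%, and it was 72.7% for the JAZ and 85.7% for the inactivation genes below, against 8.22% of all loci. The 13 synthesis genes were also read as a sum. They summed to 3089 CPM in arf7 mock and 1132 with NAA, and to 1857 and 521 in Col-0, where 9 were lower and 2 higher (median -2.35). In the order of the pathway, the lipoxygenase LOX3 (chromosome 1, 5977411 to 5981480) had 4975 and 1504 reads in arf7, 3.40-fold lower (3.21 to 3.61), against 3066 and 159, 18.7-fold. The allene oxide synthase AOS, which makes the pathway's first committed product, had 4088 and 1450, 2.90-fold (2.73 to 3.08), against 2615 and 800, 3.17-fold. The allene oxide cyclase AOC2 (chromosome 3, 9406873 to 9407955) had 1698 and 275, 6.36-fold (5.59 to 7.25), against 658 and 15, 42.5-fold. The mock library of arf7 was the highest of the 4 for each of these 3 genes. The AOC genes are close copies, so reads of single copies are uncertain. AOC4 had 204 and 195 reads in arf7 and 220 and 850 in Col-0.

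JAZ repressors, which hold back the MYC factors and are themselves jasmonate-induced, were lower at 8 of 11 compared members (median -1.33), against 5 of 11 in Col-0 (median -0.56). JAZ2 (AT1G74950) had 2239 and 915 reads in arf7, 2.52-fold lower (2.33 to 2.72), and 1325 and 1156 in Col-0, a difference of -1.18 log2 (-1.34 to -1.02). JAZ6 had 2147 and 743, 2.97-fold (2.73 to 3.24), against 1403 and 446, 3.05-fold. JAZ8 had 245 and 80, 3.15-fold (2.44 to 4.11), against 185 and 11, 16.3-fold. The arf7 response was thus larger than that of Col-0 at JAZ2, alike at JAZ6 and smaller at JAZ8. JAZ12 had 746 and 785 reads and did not meet the rule. COI1, the jasmonate receptor, had 287 and 451 reads, and the factor MYC2 had 3743 and 3509, neither past the rule.

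The enzymes that inactivate jasmonate were lower with the rest. Of 7 compared 5 were lower and 1 higher (median -1.90; 5 and 1 in Col-0, median -1.70). JOX4 (AT2G38240), a jasmonate oxidase, had 256 and 20 reads in arf7, 13.2-fold lower (8.35 to 21.9), against 147 and 19. CYP94C1, which oxidises the active conjugate, had 963 and 152, 6.52-fold (5.49 to 7.79), against 593 and 152. CYP94B3, of the same enzyme group, had 3099 and 2995 in arf7 and 2020 and 603 in Col-0. The higher one was the sulfotransferase ST2A, with 46 and 99 reads, 2.09-fold (1.46 to 3.03), against 53 and 1386. Of 6 compared genes of perception and downstream response 2 were lower, among them the aminotransferase TAT3 with 256 and 9 reads, 29.3-fold (15.2 to 64.8), against 80 and 21.

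Of the 13 jasmonate synthesis windows 6 held the G-box, and so did 6 of the 11 JAZ windows. The share was 9.30% in all windows, 12.5% in those of the higher loci and 11.4% in those of the lower loci. The G-box was picked as a motif of the jasmonate-activated MYC factors, so the match among jasmonate genes is not independent. The W-box core TTGACC or TTGACT, a motif that WRKY factors are known to bind, was in 8 of the 13 jasmonate synthesis windows and in 32.4% of all, 30.6% of the higher and 38.8% of the lower. Every motif was read on both strands, and G-box matches on either strand are the same site. TGTCTC and TGTCGG share their first letters and were counted separately.

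**Figure D3:**
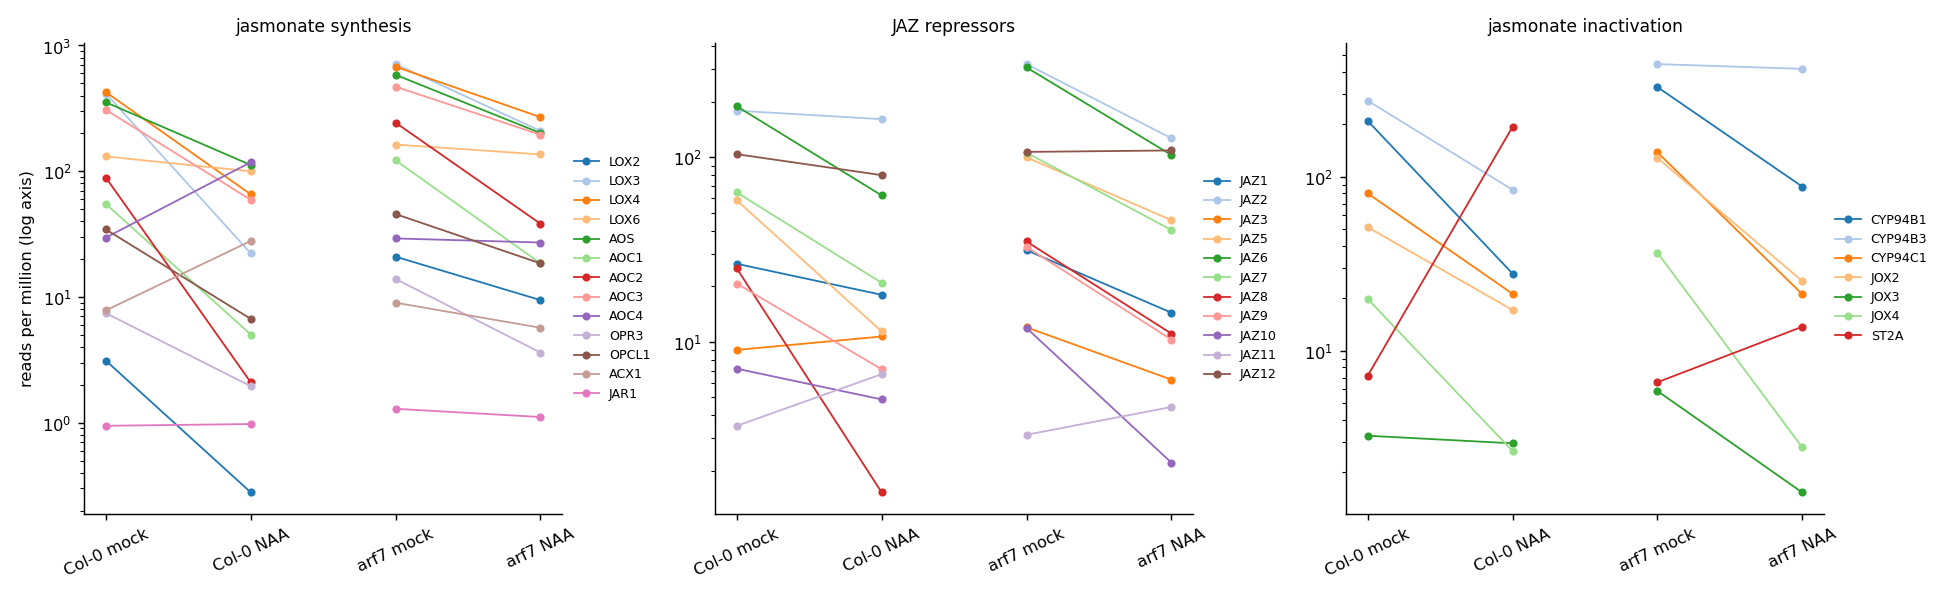
CPM (y, log axis) of jasmonate synthesis genes, JAZ repressors and jasmonate-inactivating enzymes in each of the 4 libraries, with a line joining mock to NAA within a genotype. Most synthesis and JAZ genes start higher in arf7 mock than in Col-0 mock and end lower with NAA in both genotypes, while ST2A goes the other way.

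Large decreases were also read at single genes of other kinds. TPS04, the geranyllinalool synthase of a defence volatile, had 210 and 7 reads in arf7, 30.9-fold lower (14.7 to 77.7), against 50 and 1 in Col-0. FAMT, a methyltransferase of farnesoic acid, had 323 and 25, 13.3-fold (8.85 to 20.9), against 159 and 19. The calmodulin-like CML39 had 139 and 19, 7.53-fold (4.64 to 12.9), against 79 and 49. The chlorophyllase CLH1, a jasmonate-induced gene, had 200 and 33 in arf7, 6.24-fold lower (4.30 to 9.31), and 56 and 160 in Col-0, where it was higher.

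Phenylpropanoid and lignin enzymes were lower too. Of 14 compared 0 were higher and 7 lower (median -1.05), and all 14 ratios were below 1, while in Col-0 1 was higher and 3 lower (median -0.08). PAL1 (AT2G37040), the entry enzyme of the pathway, had 5777 and 1915 reads, 3.11-fold lower (2.95 to 3.27), against 5105 and 2562. PAL2 had 3828 and 1320, 2.98-fold (2.80 to 3.18), against 4010 and 1313, 2.96-fold. PAL4 had 619 and 256 in arf7, 2.49-fold lower (2.15 to 2.89), but 455 and 1113 in Col-0, 2.53-fold higher. The coumarate ligase 4CL5 had 390 and 80, 5.02-fold lower (3.94 to 6.47), against 198 and 160. C4H, the second enzyme, had 5686 and 2667, 2.19-fold (2.1 to 2.30), against 5332 and 2441. The 2 genotypes therefore were alike at PAL2 and C4H and parted at PAL4 and 4CL5.

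Branches from that pathway and its methyl supply were in part lower as well. SAHH2, which recycles the by-product of methyl transfer, had 4435 and 1344 reads, 3.40-fold lower (3.19 to 3.61), against 3277 and 2165, and was the 1 of 9 methyl cycle genes to meet the rule. Of 5 compared flavonoid enzymes 3 were lower, with CHS, chalcone synthase, at 4087 and 1638 reads in arf7, 2.57-fold (2.42 to 2.72), and 894 and 349 in Col-0, 2.48-fold. Of 9 compared suberin genes 5 were lower and 1 higher (median -1.55), against 2 and 3 in Col-0 (median 0.64), and 7 had an arf7 response below that of Col-0. CYP86A1, a fatty acid hydroxylase of suberin, had 232 and 81 reads, 2.95-fold lower (2.28 to 3.85), against 125 and 60. GPAT5, the acyltransferase of suberin, had 92 and 31, 3.05-fold (2.01 to 4.75), against 29 and 44. KCS2, an elongase, had 137 and 106 in arf7 and 106 and 1667 in Col-0.

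Detoxification families had more members lower than higher, and defence families varied. Of 45 glutathione S-transferases 1 was higher and 11 lower (median -0.32; 7 and 18 in Col-0), with GSTU5 at 3456 and 910 reads, 3.91-fold (3.63 to 4.21), against 2364 and 902. GSTU17 had 154 and 22 in arf7, 7.21-fold lower (4.59 to 11.8), and 91 and 125 in Col-0. Of 136 cytochromes P450 4 were higher and 16 lower, and of 96 UDP-glycosyltransferases 5 and 15. These were 14.7% and 20.8% past the rule, against 8.22% of all loci. Of 17 cysteine-rich receptor kinases 0 were higher and 5 lower (median -0.73). The 106 NBS-LRR immune receptors had 3 higher and 2 lower in arf7 (4.72% past the rule, below the share of all loci), against 8 and 36 in Col-0. Pathogenesis-related proteins and chitinases went both ways, 7 higher and 5 lower of 35, and the PR-1-LIKE gene AT2G19990 had 0 and 70 reads in arf7, at least 22.7-fold higher, against 7 and 511.

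Among transcription factors the AP2/ERF group had the largest share past the rule of those named here (29.1%), with 14 higher and 11 lower of 86, while 4 of 78 bHLH genes were higher and 6 lower. CBF2 and CBF1, cold-response regulators, had 18 and 199 reads, 10.7-fold higher (6.62 to 18.5), and 28 and 133, 4.61-fold (3.05 to 7.21). In Col-0 CBF2 had 95 and 196 and CBF1 had 60 and 56, so both were lowest in arf7 mock. ERF105 had 1011 and 4725 reads in arf7, 4.54-fold higher (4.24 to 4.86), but 3942 and 1109 in Col-0. The lower ones included ABR1, with 887 and 240, 3.80-fold (3.29 to 4.41), against 537 and 31. COL5, a B-box factor, had 163 and 457, 2.72-fold higher (2.27 to 3.28), against 1082 and 5306. Of 60 NAC genes 4 were higher and 5 lower, of 80 MYB genes 2 and 6, and of 51 WRKY genes 3 and 5.

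Heat shock proteins and LEA proteins stood on opposite sides in the counts past the rule, while summed reads of both were lower with NAA. The sums were 9464 CPM in arf7 mock and 6185 with NAA for heat shock proteins, and 1764 and 1519 for LEA proteins and dehydrins. Of 28 heat shock proteins 0 were higher and 4 lower (median -0.60; 16 lower in Col-0, median -1.04), among them the disaggregase HSP101 with 2148 and 774 reads, 2.86-fold (2.63 to 3.11), against 1481 and 290. HSP70 (AT3G12580) had 16392 and 8981, 1.88-fold lower (1.83 to 1.93) and short of the rule, against 10083 and 633. Of 27 late embryogenesis abundant proteins and dehydrins, protectants of drying tissue, 10 were higher and 0 lower (median 0.56), nearly all at few reads, such as LEA4-5 with 9 and 30. Where the mean had to reach 5 CPM, 1 LEA gene was higher. Ribosomal proteins (332 genes, 1 higher and 4 lower), tubulins and kinesins (43, 0 and 1), cyclins (35, 0 and 3) and chlorophyll-binding and photosystem proteins (77, 2 and 1) had 1.51% to 8.57% of members past the rule, against 8.22% of all loci.

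Set beside the wild type, the loci of the arf7 response were in part those of Col-0. The 2 pairs share no library. Of the 660 loci higher in arf7, 386 were also higher in Col-0, which is 58.5% of the arf7 list and 15.7% of the 2463 of Col-0. A further 57 (8.64%) were lower in Col-0 and 217 did not meet the rule there. Of the 763 lower in arf7, 338 were lower in Col-0 (44.3% of the arf7 list, 13.6% of the Col-0 list), 101 (13.2%) were higher and 324 met neither. Over all compared loci 14.2% were higher and 14.4% lower in Col-0. The shares with the same direction lay above that background. The opposite shares lay below it (8.64% against 14.4%) or near it (13.2% against 14.2%). Loci below 1 CPM in the arf7 pair, 50 of them higher and 6 lower in arf7, passed the filter through Col-0. These shares therefore depend in part on the filter, and they were not recomputed with a filter on the arf7 libraries alone. Among the 386 shared higher loci the median log2 ratio was 1.84 in arf7 and 2.91 in Col-0, and 137 had an arf7 response smaller than that of Col-0 by the rule and 3 a larger one. Among the 338 shared lower loci the medians were -1.45 and -2.11, with 103 smaller and 4 larger. Over all loci the response differed between genotypes at 25.2%, 12.5% with arf7 below Col-0 and 12.7% above.

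**Figure D4:**
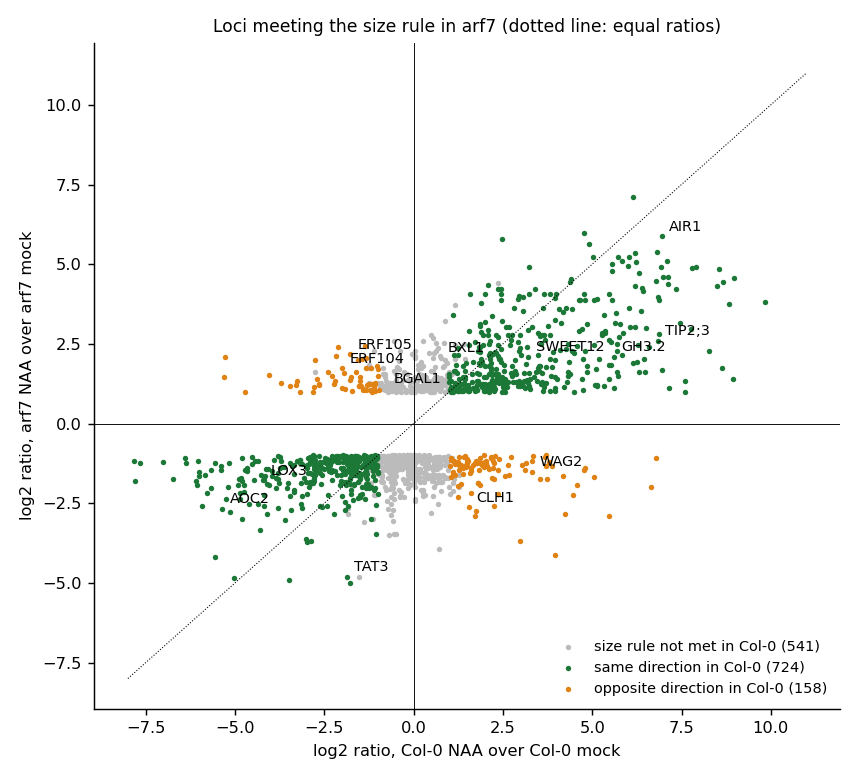
Log2 NAA ratio in arf7 (y) against that in Col-0 (x) for the 1423 loci that met the size rule in arf7, coloured by whether Col-0 met it in the same direction (724, green), the opposite one (158, orange) or not at all (541, grey). Most green points lie nearer to 0 on the arf7 axis than on the Col-0 axis, and points are absent around 0 on the y axis because the rule chose them on it.

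The authors' deposited table for this pair holds 333 higher and 484 lower loci, whose smallest absolute log2 ratio is 1.00 and whose largest FDR is 0.000992. The size rule was met with the same sign by 327 and 476 of those loci. The test behind that table is not given in the sources used here.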

How the data were processed

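RNA was measured in 4 libraries of dark-grown hypocotyls, 1 each of arf7 NAA, arf7 mock, Col-0 NAA and Col-0 mock. Per the labels' protocols, random-primed cDNA of total RNA was sequenced by Illumina. The authors deposited, per the file headers, for each transcript model the count of reads assigned uniquely, the percent of the model covered and an RPKM value. Models with no read are not listed. The submitters' processing notes name TAIR10. Aligner, counter and use of strand are not given in the sources used here. Log2 ratios, p-values and FDR come from a comparison table that the authors deposited, and 16 further columns of per-sample values were not used.

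Counts were summed per locus and divided by the library total. Models of a locus that share sequence appear to lose reads: covered length had a median of 81.8% for loci with 1 listed model and 8.64% for others. Of 23695 loci, the 17317 whose mean over the 4 libraries reached 1 CPM were compared, so a locus could pass through the library where it was high. With 1 library per group the size rule in the report replaced a test. Ratios carry exact conditional binomial (Clopper-Pearson) 95% intervals, log2 ratios had 0.5 added per count, a count of 0 was set to 3 for bounds, and differences between genotypes have Wald intervals. All cover counting error only. Families came from 51 word patterns in the deposited descriptions and 13 locus lists, which held 429 of the 1423 loci past the rule (30.1%) and 14.5% of all compared. Named genes were the up to 5 members per role and direction with the largest fold and at least 30 reads in the higher arf7 library, the 12 largest changes each way at 10 CPM or more, the 8 largest CPM changes each way, and ARF7. Further genes named for pathway position, level or contrast between genotypes were chosen after their values were seen. Members, lists, patterns and the promoter motifs were chosen with earlier results of these data known, and some patterns were narrowed after the files were read. List members without a row, such as JMT, PDF1.2A and F3H, were not analysed here. Promoter windows were cut from the RefSeq genome, whose gene tags matched 99.9% of 17225 nuclear loci. Scripts were tested on simulated data. Tools were Python 3.11.15 with pandas 2.3.3, numpy 2.4.6, scipy 1.17.1 and matplotlib 3.10.9, and R 4.3.3 with edgeR 4.0.16 and DESeq2 1.42.0 for scaling only. Alternatives were other scalings, filters, intervals, added counts, model choices and promoter windows.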

Additional observations from a re-analysis of the deposited data

Results flagged for a closer look

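At 9 loci named by the rule for named genes, the arf7 pair and the Col-0 pair moved in opposite directions, each past the size rule. With 1 library per group this difference was not tested. The log2 ratios of NAA over mock were as follows. Higher in arf7 and lower in Col-0 were ERF105 (2.18 and -1.78) and ERF104 (1.73 and -2.00), both ethylene response factors, the heat shock factor HSFA6A (2.43 and -1.37) and the linker histone HIS1-3 (1.99 and -1.56, from reads over 13.9% of its model). Lower in arf7 and higher in Col-0 were the peroxidases AT4G36430 (-1.96 and 1.23) and PRX72 (-1.06 and 1.43), the bHLH gene AT2G22760 (-1.55 and 1.59) and the cyclin CYCP4;1 (-1.18 and 2.04). The MATE transporter gene AT2G04050 (-2.91 and 5.47) also belongs there, and its Col-0 mock library held 0 reads, so its second value depends on the added count.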

How the results depend on the processing

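The numbers of loci past the size rule, 660 higher and 763 lower, were 665 and 757 with TMM scaling, 649 and 775 with DESeq2 size factors and 741 and 839 with no expression filter. Where the mean had to reach 5 CPM they were 363 and 450, and they were 390 and 489 where the interval had to lie wholly beyond 1.5-fold. Fewer loci pass either of these by construction. The loci higher in both genotypes numbered 234 at 5 CPM. The LEA genes higher numbered 1 at 5 CPM and 5 with the stricter interval, and the root hair markers higher numbered 3 at 5 CPM. With only loci that have 1 listed model, 5 JAZ genes were lower, 6 dark- and starvation-induced genes were higher and that list's median was 0.83. Of 717 recomputed counts 623 stayed within 1.5 times, 91 were smaller and 3 larger, and 437 of 447 family medians stayed in place. Of 630 recomputed values of named loci 623 kept their side of the rule and 7 lost it, all under the stricter interval. No direction reversed. With windows of the 250 upstream bases alone 6 of 15 promoter shares moved. No paired analysis was possible because each group is 1 library, and for the same reason no replicate could be left out. At this depth genes with under 10 reads have intervals several-fold wide.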

Other observations

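In all, 158 loci met the size rule in opposite directions in the genotypes, members of the named families included. Among those higher in arf7 and lower in Col-0 were ACS6, which makes the ethylene precursor, with 1212 reads in arf7 mock and 3407 with NAA (2.73-fold, 2.56 to 2.92) against 2456 and 834 in Col-0. ERF5 had 244 and 696 reads against 906 and 260. The calcium-binding protein gene AT4G27280 had 996 and 3142 against 2532 and 805, and the Nudix hydrolase gene NUDT21 had 336 and 1408 against 903 and 319. In all 4 the arf7 mock and the Col-0 NAA libraries were the low ones. Among those lower in arf7 and higher in Col-0, the kinase gene WAG2, a regulator of auxin transport, had 123 and 44 reads against 133 and 1288. The gibberellin synthesis gene GA3OX1 had 91 and 36 against 52 and 199. The sulfate transporter gene SULTR3;1 had 29 and 9 against 8 and 271, and EARLI1, of the lipid-transfer protein superfamily, had 333 and 139 against 171 and 1364. MSRB9, a methionine sulfoxide reductase gene, had 138 and 30 against 63 and 317, over 11.8% of its model. For these 5 genes the mock libraries were closer to each other than the NAA libraries were. These genes were chosen after their values were seen.

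Descriptions that no family covered and that had many loci past the rule in arf7 included the cysteine/histidine-rich C1 domain proteins, with 13 of 71 higher and 4 lower (median log2 0.44). Heavy metal transport and detoxification proteins had 5 of 22 higher and 0 lower (median 0.07). Dirigent-like proteins had 0 of 17 higher and 5 lower (median -0.48), and calcium-dependent phosphotriesterase proteins 0 of 10 and 4 (median -0.82). FAD-binding berberine proteins had 0 of 17 higher and 4 lower (median -0.48). Over all loci 3.81% were higher and 4.41% lower. These words were picked for their counts.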
